A study of Mus musculus with 16 samples.

Results

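Genes that mark macrophages or serve particle uptake were followed in bulk lung RNA, 9 in all: the scavenger receptors Marco, Msr1 and Cd36, the lysosomal glycoprotein Cd68, the growth factor Csf1 with its receptor Csf1r, and the surface markers Adgre1, Siglecf and Mertk. They are 9 of the 18193 genes with a probe set of their own on the arrays. The list was drawn up with earlier results of these data known. Among a gene's probe sets with a single symbol, the one used was chosen by its mean over the 16 arrays, the highest being kept, with no filter on expression; that mean pools all groups and is the only measured value the rule used. All 9 genes were above the array median on at least 4 arrays. The 9 genes have 20 such probe sets. Marco has 2, Msr1 4, Cd36 3, Csf1 4 and Csf1r 3, and the other 4 genes have 1 each.

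The arrays were 1-colour Affymetrix mouse chips hybridised with RNA extracted from whole lungs of female BALB/c mice 19 h after a single intranasal instillation. The 4 groups of 4 samples were non-pregnant mice given PBS, non-pregnant mice given 50 ug of titanium dioxide (TiO2) particles, pregnant mice given PBS and pregnant mice given 50 ug of TiO2; pregnant mice were at gestation day 14. Per the design text, the particles had been baked to remove endotoxin and PBS was the vehicle. The series asks whether pregnancy alters the lung's normally small response to such inert particles. The labels do not say whether each sample is 1 mouse. The p-values therefore set group differences against the spread between these samples, not between known animals, and 4 arrays per group limit the precision.

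Lung macrophages clear inhaled particles and bacteria. Scavenger receptors on their surface bind negatively charged ligands without the help of antibody, and MARCO of the alveolar macrophage is known as a receptor for unopsonised environmental particles, TiO2 among them. Macrophages depend on signalling through the CSF1 receptor for survival, and ingested material ends in lysosomes, where CD68 is found.

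Arrays of the same group differed in ways that the labels do not explain. Lung epithelial transcripts were high on every array: the surfactant gene Sftpc lay between 13.15 and 13.49, and the club cell gene Scgb1a1 between 13.44 and 13.55, on a log2(intensity + 16) scale on which the median probe set is at 5.94. The mean of 9 thymus genes was 7.75 and 8.24 on non-pregnant PBS replicates 3 and 4, against 4.87 to 5.56 on the other arrays. Pregnant TiO2 replicate 2 had a mean of 5.08 for 6 squamous epithelium genes and 5.68 for 9 striated muscle genes, against at least 9.02 and 9.44 elsewhere. The transcript of Glycam1, a mucin made by lymph node venules, read 4.14 to 4.60 on non-pregnant TiO2 replicates 1 and 4 and pregnant TiO2 replicate 2, and at 8.06 to 10.76 on the other arrays. All arrays low in Glycam1 were TiO2 arrays, and both arrays high in thymus genes were non-pregnant PBS arrays. Tissue content thus runs in part with the groups compared. The source name of non-pregnant PBS replicate 2 calls the mouse pregnant and its gestation field non-pregnant; it was kept as non-pregnant, which gives the 4 samples per group of the design text.

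The promoters of Marco, Cd68 and Csf1, the members whose levels passed a test below, are shown as the 250 bases upstream of the RefSeq start (GRCm38.p6, all on the minus strand, printed 5′ to 3′ along the gene). RefSeq promoters were given for 6 of the 9 members. Of 6 motifs searched on both strands, 3 had matches here, marked in capitals: GAGGAA, the core bound by the macrophage factor PU.1; TGANTCA, the AP-1 site; and the NF-kB site, GGGA and TTTCC with 1 free base between them.
Marco, chr1:120505025-120505274: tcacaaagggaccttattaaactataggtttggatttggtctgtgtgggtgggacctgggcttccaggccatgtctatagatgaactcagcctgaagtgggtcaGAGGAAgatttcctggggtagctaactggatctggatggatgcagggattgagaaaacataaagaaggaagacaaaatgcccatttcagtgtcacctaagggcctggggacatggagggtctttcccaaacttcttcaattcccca
Cd68, chr11:69666171-69666420: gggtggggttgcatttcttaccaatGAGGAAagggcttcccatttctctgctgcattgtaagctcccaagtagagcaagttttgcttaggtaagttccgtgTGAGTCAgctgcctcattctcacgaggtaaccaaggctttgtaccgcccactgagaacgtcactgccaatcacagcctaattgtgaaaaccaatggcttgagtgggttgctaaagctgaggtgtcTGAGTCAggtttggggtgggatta
Csf1, chr3:107760470-107760719: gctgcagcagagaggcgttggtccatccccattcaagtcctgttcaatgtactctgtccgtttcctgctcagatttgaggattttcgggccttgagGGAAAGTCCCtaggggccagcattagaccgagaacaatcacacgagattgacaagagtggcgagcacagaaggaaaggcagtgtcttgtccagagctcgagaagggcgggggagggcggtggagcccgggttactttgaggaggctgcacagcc

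Marco held GAGGAA once, 146 to 141 bases upstream of its start. Cd68 held it at 225 to 220 bases and the AP-1 letters at 149 to 143 and at 24 to 18 bases; this motif reads the same on both strands. Csf1 held the NF-kB letters on the opposite strand, at 154 to 145 bases. Among 32851 promoters of this length, 23.3% held GAGGAA, 6.75% TGANTCA and 0.356% the NF-kB letters. GAGGAA was in 3 of the 6 member promoters (Siglecf is the other), and each of the other 2 motifs in 1. TGACNNNGC, the antioxidant response element, was in 10.2% of promoters, a PPAR direct repeat (AGGTCA repeated after 1 free base) in 0.0335% and the lysosomal CLEAR element (CACGTG between GT and AC) in 0.24%; none of the 6 member promoters held them. A match describes these letters and is not a measured binding site.

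Levels were compared in 5 contrasts of 1 limma fit over all 16 arrays: TiO2 minus PBS in each kind of mouse, pregnant minus non-pregnant after each exposure, and the difference of the TiO2 effects. Each group enters 2 of the first 4, so these share arrays. Differences are on the log2(intensity + 16) scale, which understates changes of dim genes, with standard errors (SE) of the fit. A gene was called at a Benjamini-Hochberg adjusted p under 0.05 over all 18193 genes. In this bulk tissue, fewer cells of a type and less RNA per cell cannot be told apart.

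**Figure D1:**
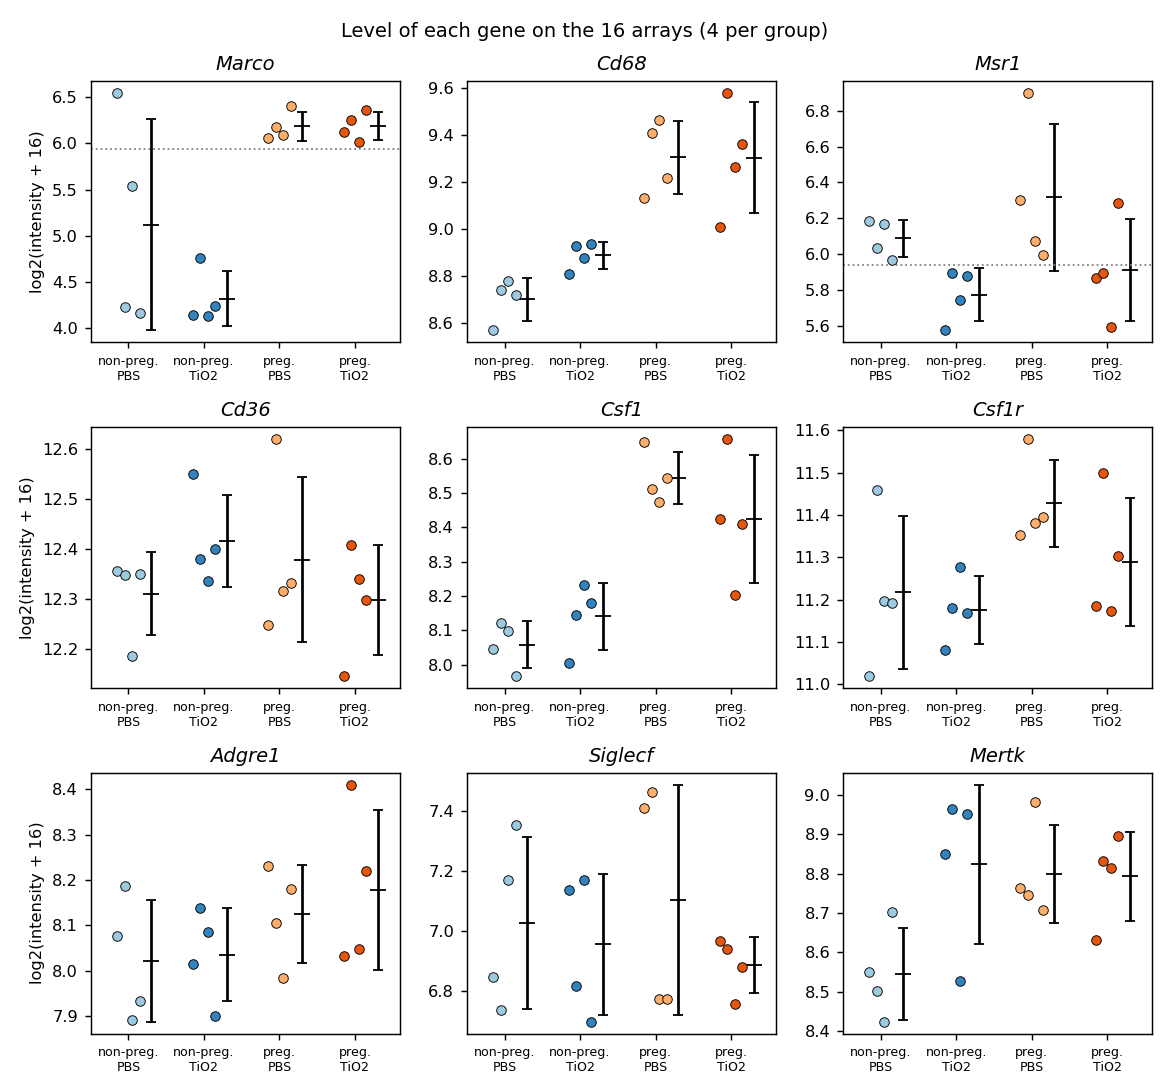
Level of each of the 9 genes as log2(intensity + 16) on the 16 arrays, 4 points per group, with the group mean and SD to the right of the points; dotted lines mark the array median of 5.94. All 8 pregnant arrays lie above 6.0 for Marco, and the 8 pregnant arrays lie above all non-pregnant ones for Cd68.

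Marco, a class A scavenger receptor with a collagen-like stem, stood at one low level in pregnant lungs and at or near the floor in most non-pregnant ones. After PBS, the non-pregnant arrays read 6.55, 4.23, 5.54 and 4.16 (mean 5.12 ± 1.14, SD, n = 4) and the pregnant arrays 6.06, 6.18, 6.10 and 6.40 (6.18 ± 0.15). After TiO2, the non-pregnant arrays read 4.15, 4.77, 4.13 and 4.24 (4.32 ± 0.30) and the pregnant arrays 6.13, 6.26, 6.02 and 6.36 (6.19 ± 0.15). All 8 pregnant arrays and non-pregnant PBS replicate 1 were above their array median, and the scale cannot go below 4. In normalised intensity, the non-pregnant TiO2 arrays ran from 1.54 to 11.2 and the pregnant TiO2 arrays from 48.9 to 66.3, so the groups did not overlap. Marco was higher in pregnant than in non-pregnant mice after TiO2, by 1.87 ± 0.37 (SE; limma adjusted p = 0.0256). With one side near the floor, the size of this difference is set largely by the pseudocount: it was 3.78 with a pseudocount of 1 (adjusted p = 0.0294) and 0.83 with one of 64 (adjusted p = 0.0305). The SE holds for a pseudocount of 16 and does not cover that choice. After PBS, where non-pregnant replicate 1 was the highest of all 16 arrays, the difference of 1.06 ± 0.37 did not pass (adjusted p = 0.300).

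TiO2 did not move Marco past the threshold. Non-pregnant mice had a difference of −0.80 ± 0.37 (adjusted p = 0.562), pregnant mice one of 0.01 ± 0.37 (adjusted p = 0.999), and the difference of these effects was 0.81 ± 0.53 (adjusted p = 0.655). The value in non-pregnant mice rests on PBS replicate 1: without it, the difference was −0.33. The pregnancy difference of Marco after PBS depended on which arrays entered. It was 1.54 (adjusted p = 0.0197) without that array, 0.77 (0.453) without non-pregnant PBS replicate 2 and 0.74 (0.528) without replicate 4. With the 3 arrays of unlike tissue content left out it was 0.79 (adjusted p = 0.415), and 0.37 (0.848) with non-pregnant PBS replicate 2 counted as pregnant. The call after TiO2 was lost without non-pregnant TiO2 replicate 1 (1.81, adjusted p = 0.0889), 3 (1.81, 0.0794) or 4 (1.84, 0.0636), or without pregnant TiO2 replicate 1 (1.89, 0.0731), 3 (1.93, 0.0531) or 4 (1.81, 0.0709). It was also lost without the 3 arrays lacking Glycam1 (1.72, adjusted p = 0.248) and with the mean of both Marco probe sets (1.10, adjusted p = 0.110). Values as deposited (1.77, adjusted p = 0.0811) and non-pregnant PBS replicate 2 counted as pregnant (1.87, adjusted p = 0.0650) ended it too.

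Msr1, the other class A receptor on the list, was dim. After PBS the non-pregnant arrays read 6.18, 6.03, 6.17 and 5.97 (6.09 ± 0.11) and those of pregnant mice 6.30, 6.90, 6.07 and 5.99 (6.32 ± 0.41). After TiO2 it read 5.57, 5.90, 5.74 and 5.88 (5.77 ± 0.15) and 5.87, 5.89, 5.59 and 6.28 (5.91 ± 0.28). It was above the array median on all 8 PBS arrays and on 1 of the 8 TiO2 arrays. Its TiO2 differences were −0.31 ± 0.19 where mice were not pregnant, with no overlap of the groups, and −0.41 ± 0.19 in pregnancy, and neither passed (adjusted p = 0.661 and 0.801). Without pregnant PBS replicate 2, the highest array, the second was −0.21. The pregnancy differences were 0.23 ± 0.19 and 0.14 ± 0.19 (adjusted p = 0.753 and 0.778). On this probe set, single pregnant arrays carried both. The first was 0.0345 without pregnant PBS replicate 2 and the second 0.0121 without pregnant TiO2 replicate 4. With the mean of all Msr1 probe sets the differences were 0.43 and 0.39, and neither was called.

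Cd36, a class B scavenger receptor that takes up long-chain fatty acids and is also made by capillary endothelium, was bright and nearly level. It ranged from 12.15 to 12.62 over the 16 arrays, and the group means from 12.30 to 12.42. Its 5 differences lay between −0.19 and 0.11, with adjusted p from 0.522 to 0.909. The 95% interval of the pregnancy difference ran from −0.11 to 0.25 after PBS and from −0.29 to 0.06 after TiO2.

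Cd68, which encodes a lysosomal membrane glycoprotein, was higher in every pregnant lung than in any non-pregnant lung. After PBS, the non-pregnant arrays read 8.57, 8.74, 8.78 and 8.72 (8.70 ± 0.09) and the pregnant arrays 9.13, 9.41, 9.46 and 9.22 (9.31 ± 0.16). After TiO2, the non-pregnant arrays read 8.81, 8.93, 8.88 and 8.94 (8.89 ± 0.06) and the pregnant arrays 9.01, 9.58, 9.26 and 9.36 (9.30 ± 0.24). Cd68 rose with pregnancy after PBS by 0.60 ± 0.11, a fold of 1.52 (adjusted p = 0.0108; 95% interval 0.38 to 0.82). After TiO2 the difference was 0.42 ± 0.11 (adjusted p = 0.0649; 95% interval 0.19 to 0.64), just outside the threshold. It was inside it without pregnant TiO2 replicate 1 (0.51, adjusted p = 0.0353). Without pregnant TiO2 replicate 2, an array of unlike tissue content, the difference was 0.32. Of 28 alternative settings 3 called it, and the highest limma adjusted p among them was 0.957.

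In non-pregnant mice the 4 TiO2 arrays for Cd68 were all above the 4 PBS arrays, but the difference of 0.19 ± 0.11 did not pass (adjusted p = 0.646). In pregnant mice the difference was 0.00 in size (adjusted p = 0.999). The effects of TiO2 differed by −0.19 ± 0.15 between the 2 kinds of mouse (adjusted p = 0.725). The call after PBS was lost when non-pregnant PBS replicate 2 was counted as pregnant (0.50, adjusted p = 0.200). It was also lost with values as deposited (0.78, adjusted p = 0.487).

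Csf1, the growth factor of the macrophage lineage, rose with pregnancy after PBS. The non-pregnant PBS arrays read 8.05, 8.12, 8.10 and 7.97 (8.06 ± 0.07) and the pregnant PBS arrays 8.65, 8.51, 8.47 and 8.55 (8.55 ± 0.08), with no overlap. The difference was 0.49 ± 0.09, a fold of 1.40 (adjusted p = 0.0186; 95% interval 0.29 to 0.68). After TiO2 the arrays read 8.00, 8.14, 8.23 and 8.18 (8.14 ± 0.10) and 8.42, 8.66, 8.20 and 8.41 (8.42 ± 0.19). Here pregnant replicate 3 fell among the non-pregnant arrays, and the difference of 0.28 ± 0.09 did not pass (adjusted p = 0.140).

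The 3 TiO2 contrasts of Csf1 were 0.08 ± 0.09 without pregnancy, −0.12 ± 0.09 in pregnancy and −0.20 ± 0.13 for their difference, with adjusted p of 0.858, 0.878 and 0.650. The call after PBS was lost without non-pregnant PBS replicate 4 (0.46, adjusted p = 0.0689), pregnant PBS replicate 1 (0.45, 0.0812) or pregnant PBS replicate 2 (0.50, 0.0531). It was also lost with non-pregnant PBS replicate 2 counted as pregnant (0.42, adjusted p = 0.189), in a fit on the PBS arrays alone (0.49, adjusted p = 0.0738) and with values as deposited (0.65, adjusted p = 0.564).

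Csf1r, the receptor tyrosine kinase that CSF1 binds, ranged from 11.02 to 11.58. Its group means were 11.22 ± 0.18 and 11.18 ± 0.08 in non-pregnant mice after PBS and TiO2, and 11.43 ± 0.10 and 11.29 ± 0.15 in pregnant mice. The pregnancy difference was 0.21 ± 0.09 after PBS (adjusted p = 0.438) and 0.11 ± 0.09 after TiO2 (adjusted p = 0.588). In both cases the arrays overlapped. Non-pregnant PBS replicate 2, the array of conflicting label, read 11.46, above 3 of the 4 pregnant PBS arrays. On the other Csf1r probe sets it read 9.27 and 8.77, below all 4 pregnant PBS arrays. Its means of neutrophil and platelet genes were 7.73 and 6.69, against at least 8.16 and 7.43 on the pregnant PBS arrays. Which of its labels is right was not tested.

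Among the 3 surface markers none passed a test. Adgre1 encodes the adhesion receptor by which mouse macrophages are commonly recognised; it ranged from 7.89 to 8.41, and its differences lay between 0.01 and 0.14. Siglecf encodes a sialic acid-binding lectin of alveolar macrophages and eosinophils. It ranged from 6.70 to 7.46 with no order by group, and its differences lay between −0.22 and 0.08. Of the 5 measured eosinophil genes, Epx, Prg2, Ccr3 and Il5ra were above the array median on 0 of the 16 arrays. Alox15, a lipoxygenase that eosinophils and resident macrophages of some tissues make, was above it on 10, with a median of 6.08 and a range of 4.82 to 7.13.

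Mertk, a receptor of the TAM family (Tyro3, Axl, Mertk) through which phagocytes take up dying cells, had its lowest group mean in non-pregnant mice after PBS. Those arrays read 8.55, 8.50, 8.42 and 8.70 (8.54 ± 0.12), against 8.85, 8.96, 8.53 and 8.95 (8.82 ± 0.20) after TiO2. Pregnant mice read 8.76, 8.74, 8.98 and 8.71 (8.80 ± 0.12) after PBS and 8.63, 8.83, 8.81 and 8.89 (8.79 ± 0.11) after TiO2. The pregnant PBS arrays lay just above the non-pregnant PBS arrays, 8.71 being their lowest and 8.70 the highest of the latter. Differences were 0.28 ± 0.10 for TiO2 in non-pregnant mice (adjusted p = 0.442), 0.25 ± 0.10 for pregnancy after PBS (adjusted p = 0.386) and −0.28 ± 0.14 for the difference of the TiO2 effects (adjusted p = 0.557).

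**Figure D2:**
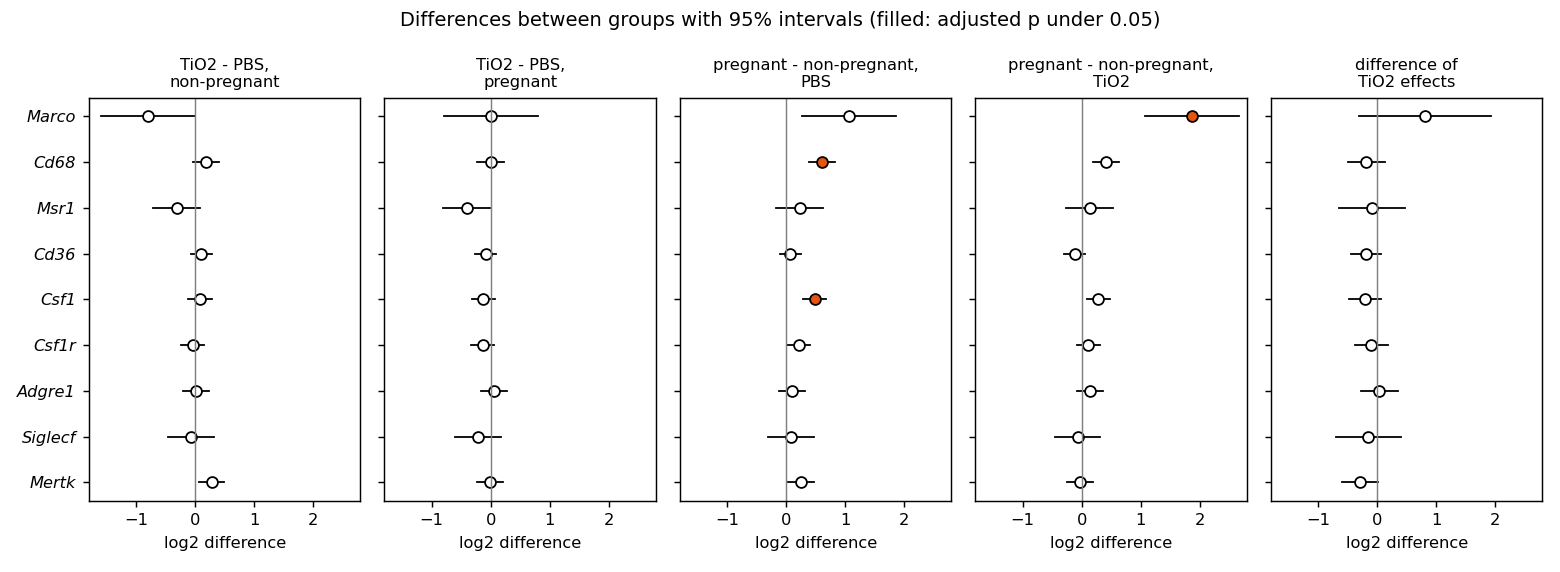
Log2 difference of each gene in the 5 contrasts (points) with 95% intervals (lines), all at a pseudocount of 16; filled points have an adjusted p under 0.05. Filled points are Cd68 and Csf1 for pregnancy after PBS and Marco for pregnancy after TiO2.

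By contrast, 2 of the 9 members were called for pregnancy after PBS, both higher, where 0.599% of all genes were called and 0.456% were called higher; 5 of 9 had an unadjusted p under 0.05, as had 10.3% of all genes. All 9 differences were above 0, as were 50.8% of all genes, with a median of 0.23 against 0.00. For pregnancy after TiO2, 1 of 9 was called, higher, against 1.23% of all genes called and 0.835% called higher. At an unadjusted p under 0.05 there were 3 of 9, against 16.3%; 6 of 9 were above 0 (all genes 55.6%), with a median of 0.14 against 0.03. For TiO2 in non-pregnant and in pregnant mice, 0 of 9 members were called by limma, and 0% of all genes. At an unadjusted p under 0.05 these contrasts held 2 and 1 members, against 8.8% and 6.21% of all genes. For the difference of the TiO2 effects 0 of 9 were called, against 0.0055% of all genes, and 0 had an unadjusted p under 0.05, against 9.55%.

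Array groups did not overlap for 3 members in pregnancy after PBS (Cd68, Csf1 and Mertk, all higher), where 2.92% of all genes were higher without overlap. It held for 2 after TiO2 (Marco and Cd68, both higher; all genes 7.48%), for 2 in the TiO2 contrast of non-pregnant mice (Cd68 higher, where 1.71% of all genes were, and Msr1 lower, where 2.79% were) and for 0 in that of pregnant mice (all genes 3.81%). Without the 3 arrays of unlike tissue content, Cd68 (0.65, adjusted p = 0.0197) and Csf1 (0.46, adjusted p = 0.0479) were still called after PBS and Marco (1.85, adjusted p = 0.0244) after TiO2.

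Other probe sets of the members bear on the size of these differences. The second Marco probe set was above the array median on 1 array, and its pregnancy differences were 0.24 ± 0.31 after PBS and 0.33 ± 0.31 after TiO2, smaller than those of the chosen one. The 3 other Csf1 probe sets gave 0.39 ± 0.13, 0.26 ± 0.13 and 0.18 ± 0.15 after PBS, the direction of the chosen one, and −0.04, 0.24 and 0.15 after TiO2. The 3 other Msr1 probe sets, above the array median on at most 2 arrays, gave 0.72, 0.34 and 0.43 after PBS and 0.62, 0.52 and 0.30 after TiO2. The other Csf1r probe sets gave 0.04 and 0.13 after PBS and 0.06 and 0.01 after TiO2, each smaller than the chosen one (0.21 and 0.11). Those of Cd36 gave −0.04 and −0.04 after PBS, where the chosen one gave 0.07, and −0.23 and −0.02 after TiO2. Cd68 has 1 probe set, so its difference has no second reading.

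**Figure D3:**
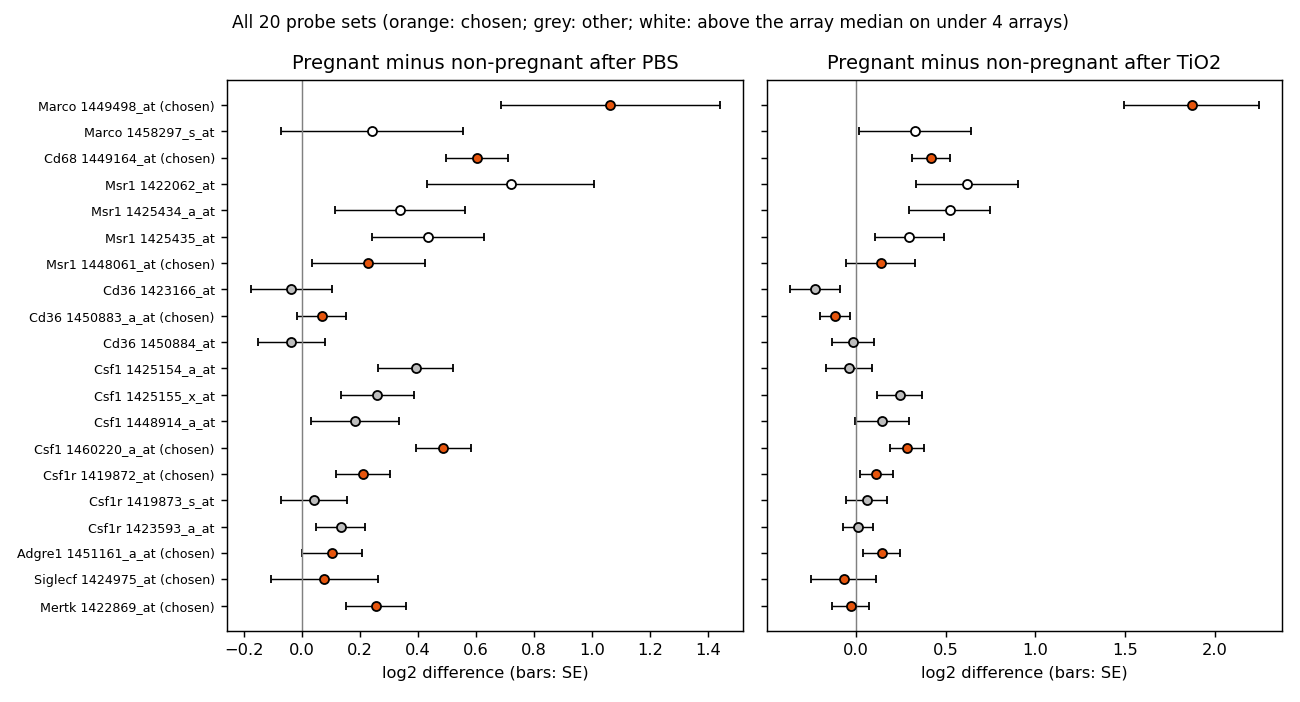
Pregnant minus non-pregnant log2 difference (points) with SE (bars) for all 20 probe sets of the 9 genes, after PBS (left) and after TiO2 (right). The chosen Marco probe set lies at 1.06 and 1.87, its other at 0.24 and 0.33, and the 4 Csf1 probe sets lie between 0.18 and 0.49 after PBS.

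Other genes of the same pathways were counted over lists. Of all genes, 0.456% were called higher for pregnancy after PBS and 0.835% after TiO2. An unadjusted limma p under 0.05 was held by 10.3% and 16.3%, and 50.8% and 55.6% were above 0. These shares stand beside all list counts of the pregnancy contrasts below. Of 16 other scavenger receptors, 1 was called for pregnancy after PBS and 2 after TiO2, all higher. Clec7a, the beta-glucan receptor dectin-1, rose by 0.52 ± 0.11 after PBS (adjusted p = 0.0375) and by 0.54 ± 0.11 after TiO2 (adjusted p = 0.0256), and Cxcl16, a membrane chemokine that binds oxidised lipoprotein, by 0.44 ± 0.08 after TiO2 (adjusted p = 0.0218). The medians of the list were 0.02 and 0.11, against 0.00 and 0.03 for all genes. Of 14 measured partners of Cd36 in lipid handling, 0 were called by limma in either pregnancy contrast, with 3 and 4 at an unadjusted p under 0.05.

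Alveolar macrophage genes were represented by 14 of 16. Chil3, a chitinase-like secreted protein abundant in alveolar macrophages, rose by 0.87 ± 0.13 with pregnancy after PBS (adjusted p = 0.00345) and was the only one of the 14 called; after TiO2 it stood at 0.51 ± 0.13 (adjusted p = 0.0614). The list's medians were 0.15 and 0.18. Of 14 interstitial macrophage and monocyte genes, 2 rose after PBS and 4 after TiO2. The medians of these 14 were 0.11 and 0.44, and 3 and 10 of them had an unadjusted limma p under 0.05. Nr4a1, a nuclear receptor of non-classical monocytes that is also an immediate-early gene, rose by 1.33 ± 0.16 and 1.26 ± 0.16, and F13a1, a coagulation factor subunit also carried by platelets, by 0.77 ± 0.15 and 0.78 ± 0.15. The complement genes C1qc and C1qa rose by 0.51 ± 0.08 and 0.48 ± 0.09 after TiO2 (adjusted p = 0.0111 and 0.0183).

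Around Csf1 and its receptor, 16 genes of CSF signalling and myeloid transcription were measured. After PBS, 4 rose with pregnancy: Csf2rb, the shared beta chain of the GM-CSF receptor (0.93 ± 0.14), Csf3r, the G-CSF receptor of neutrophils (1.17 ± 0.17), the Fc receptor gamma chain Fcer1g (0.79 ± 0.14) and Spi1, which encodes PU.1 (0.65 ± 0.13). After TiO2, 3 rose: the adaptor Tyrobp (0.55 ± 0.12), Fcer1g (0.58 ± 0.14) and Csf3r (0.74 ± 0.17). The list's medians were 0.38 and 0.43. Several of these genes are also expressed by neutrophils and monocytes.

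Genes of dead-cell uptake did not pass in either pregnancy contrast: 0 of 15 were called by limma, with 1 and 4 at an unadjusted p under 0.05. Elmo1, which couples engulfment receptors to Rac, had the smallest p, at −0.74 ± 0.18 after TiO2 (adjusted p = 0.0509). Of 17 lysosomal genes, 1 was called, the protease Ctsh, which rose by 0.33 ± 0.07 after PBS (adjusted p = 0.0416). In all, 14 of the 17 were above 0 after PBS and 12 after TiO2, with medians of 0.12 and 0.07. In the TiO2 contrasts and for the difference of the TiO2 effects, 0 genes of these 7 lists were called by limma, with 1 to 5 genes per list at an unadjusted p under 0.05. Of all genes, 8.8% had such a p for TiO2 in non-pregnant mice, 6.21% in pregnant mice and 9.55% for the difference. The highest count, 5, was that of the 14 interstitial macrophage and monocyte genes for TiO2 in pregnant mice, where their median was 0.19. Ctsk, a protease with the smallest p of the alveolar list, stood at 0.45 without pregnancy and 0.44 in pregnancy (adjusted p = 0.339 and 0.542).

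Markers of blood cells moved with pregnancy beside Cd68, Csf1 and Marco. Of 13 neutrophil genes, 5 rose after PBS and 3 after TiO2, where 0.456% and 0.835% of all genes were called higher. The list's medians were 0.61 and 0.46, and S100a9 and S100a8 rose by 1.64 ± 0.20 and 1.46 ± 0.20 after PBS. The mean of the neutrophil list per array ran from 7.55 to 7.73 and from 8.16 to 8.54 in non-pregnant and pregnant mice after PBS, and from 7.26 to 7.76 and from 7.70 to 8.13 after TiO2. For TiO2 minus PBS, 0 of the 13 were called in either kind of mouse, with medians of −0.17 without pregnancy and −0.51 in pregnancy. In pregnant mice 9 had an unadjusted limma p under 0.05 (all genes 6.21%), and 6 did not overlap (all genes 3.81%). In non-pregnant mice 1 had such a p (all genes 8.8%). Of 11 platelet genes, 6 and 3 rose, with list means of 6.69 to 6.86 and 7.43 to 7.65 after PBS, and 6.38 to 6.90 and 7.22 to 7.58 after TiO2. Of 10 measured fat cell genes, 0 were called by limma. All 10 were above 0 for pregnancy after TiO2, against 55.6% of all genes, with a median of 0.38. An unadjusted p under 0.05 was held by 5 of them, against 16.3%. All 10 were below 0 for TiO2 in non-pregnant mice, with a median of −0.62 against −0.02 for all genes. Here 7 had an unadjusted p under 0.05 (all genes 8.8%) and 4 were lower without overlap (all genes 2.79%). The fat cell list's mean ran from 8.82 to 9.41 after PBS and 7.79 to 8.83 after TiO2 in non-pregnant mice, and from 8.55 to 9.52 and 8.00 to 9.37 in pregnant ones. Its lowest values were on the arrays lacking Glycam1. They were 8.14 and 7.79 on non-pregnant TiO2 replicates 1 and 4, and 8.00 on pregnant TiO2 replicate 2. The part of this tissue difference in the fat cell contrasts was not tested. The part of blood and fat cells in the differences of Cd68, Csf1 and Marco was not tested. Capillary endothelial and lung epithelial lists had 0 genes called by limma in the 2 pregnancy contrasts (unadjusted p under 0.05 in 1 and 3 of 12 endothelial genes and 0 and 1 of 9 epithelial genes).

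**Figure D4:**
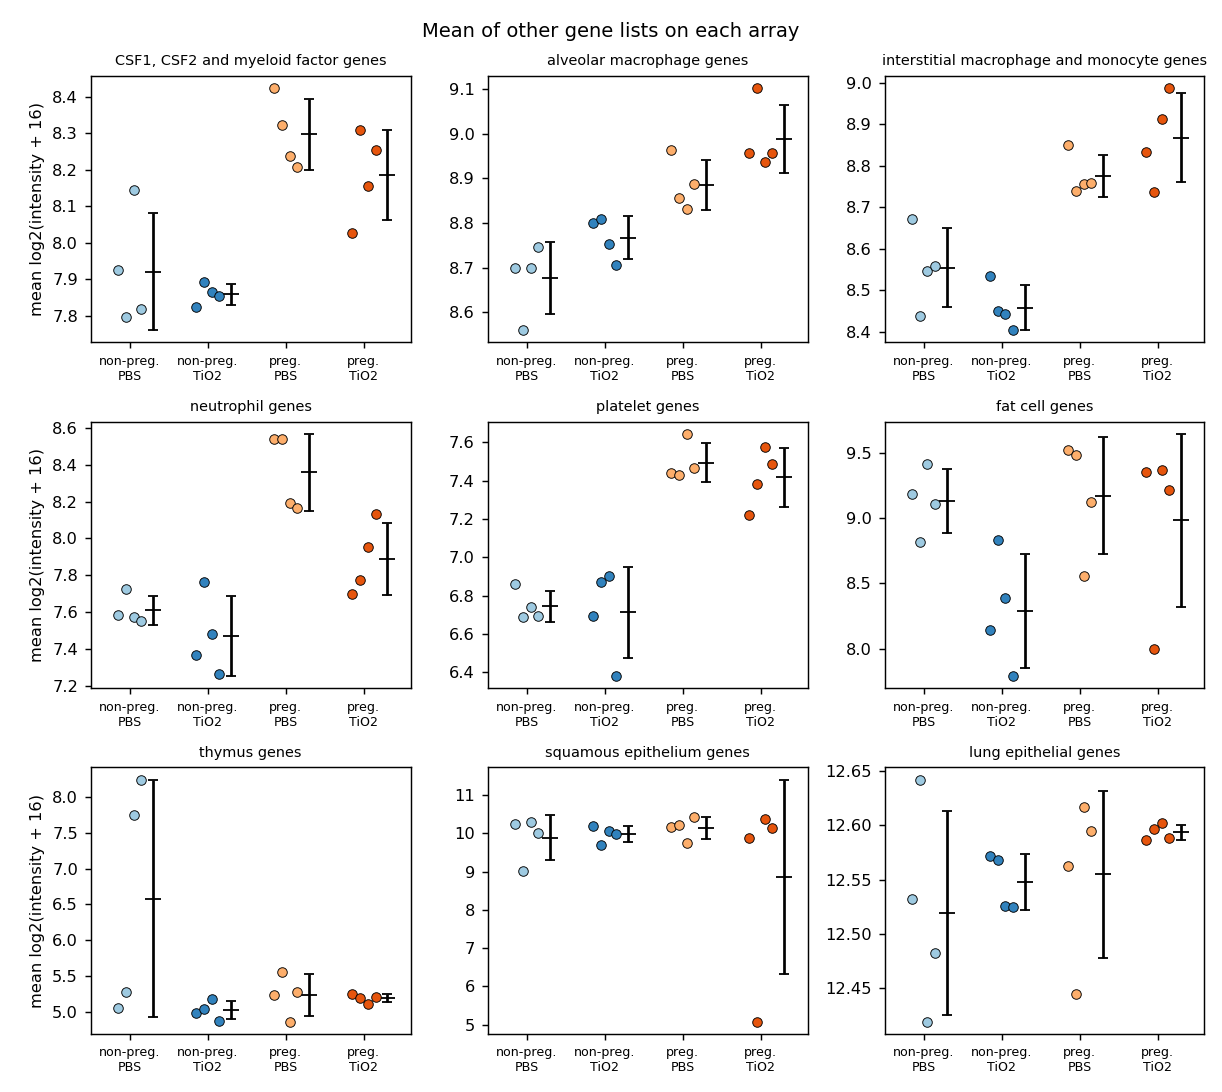
Mean log2(intensity + 16) of 9 gene lists on each of the 16 arrays, 4 points per group, with the group mean and SD beside them. The neutrophil means after PBS lie at 7.55 to 7.73 in non-pregnant and 8.16 to 8.54 in pregnant mice, and 2 non-pregnant PBS arrays stand apart at 7.75 and 8.24 for thymus genes.

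The patterns of single genes over the 16 arrays were set beside those of the members, as a description, by Pearson correlation among the 12366 genes above the array median on at least 4 arrays. Marco was most like Oplah (r = 0.92), S100a4 (0.91) and B3gnt7 (0.88), Cd68 like Fpr2 (0.92), Fxyd5 (0.91) and Lrg1 (0.89), and Csf1 like Clec4a3 (0.92), Clec7a (0.90) and Wfdc21 (0.90). For these 3 members, pregnant and non-pregnant arrays stand mostly apart, so any gene that differs with pregnancy can reach a high r with them. Csf1r was most like Tmem71 (0.86), Csf2ra and Adcy7 (both 0.85), Cd36 like Lgals8 (0.90), Prpf18 (0.89) and Gabarapl2 (0.87), and Msr1 like Ms4a6b (0.86), Acadvl and Slamf6 (both 0.77). Mertk was most like Gpatch11 (0.84), Enah (0.79) and Ece1 (0.77), Siglecf like Nsrp1 (0.79), Rassf5 and Oser1 (both 0.78), and Adgre1 like Scrn3 (0.77), Fkbp1b (0.75) and Wnt9a (0.72).

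No pair of members passed a correlation test within a kind of mouse. Among 72 pairs, 36 over the 8 pregnant and 36 over the 8 non-pregnant arrays, 0 had an adjusted exact permutation p under 0.05, and 5 by Pearson and 4 by Spearman an unadjusted one. Each set of 8 arrays holds both exposures, and the permutation ignored exposure. A TiO2 difference that both genes of a pair have therefore enters their correlation. The pair with the smallest Pearson p was Cd36 and Csf1r in pregnant mice (Pearson r = 0.80, exact p = 0.0152; Spearman rho = 0.62, exact p = 0.115; adjusted p = 0.525 and 0.753). Its r was 0.37 without the 2 arrays farthest from the median of Cd36. Leaving these out also narrows the range of Cd36, which can lower r by itself, so the drop does not show what the relation rested on. The smallest Spearman p was that of Cd36 and Mertk in non-pregnant mice (rho = 0.86, exact p = 0.0107; Pearson r = 0.67, exact p = 0.0367; adjusted p = 0.625 and 0.525). Its r was 0.89 without the 2 arrays farthest from the median of Cd36.

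**Figure D5:**
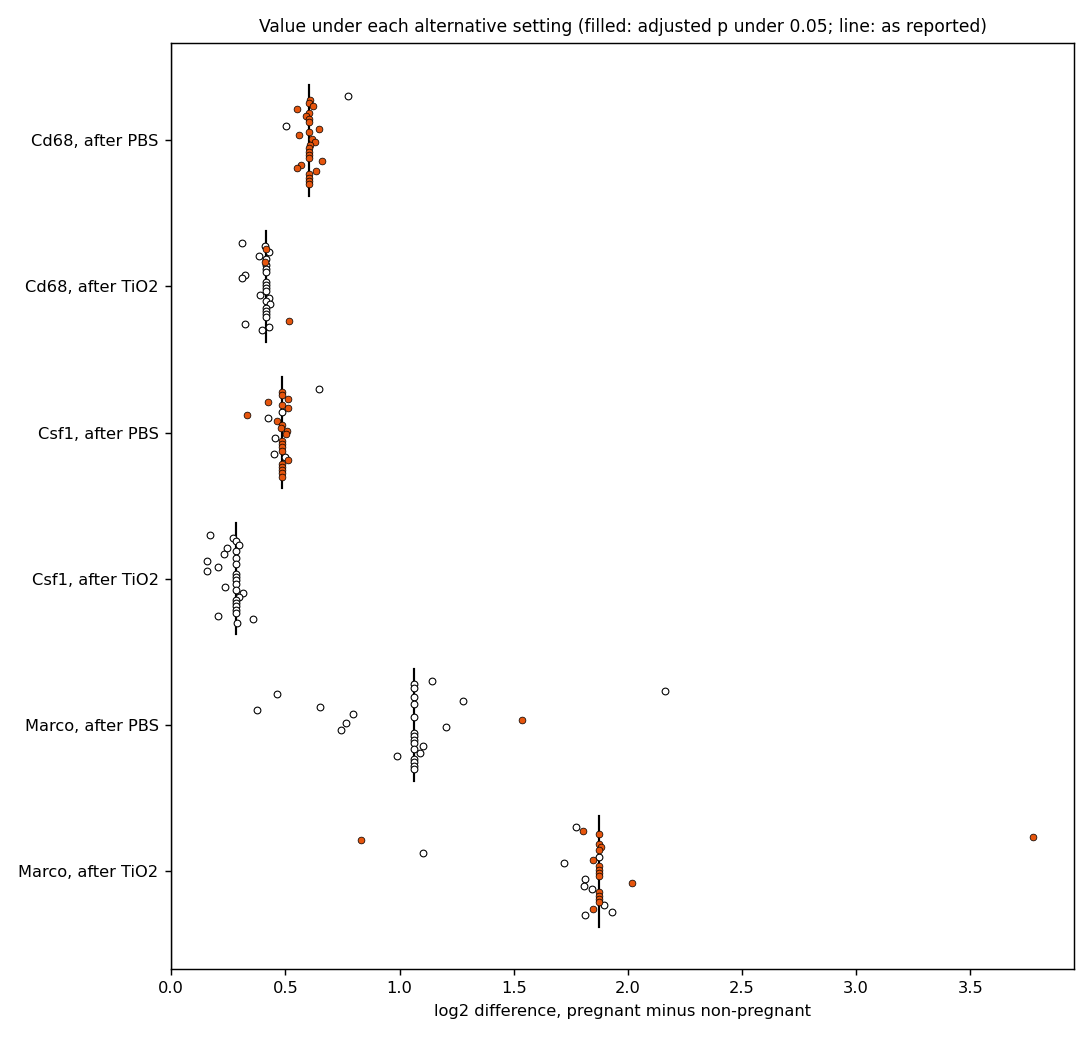
Pregnant minus non-pregnant log2 difference of Cd68, Csf1 and Marco under each alternative setting (points; filled where the adjusted p was under 0.05) and as reported (line). All values lie above 0; Marco after TiO2 runs from 0.83 to 3.78 and Csf1 after PBS from 0.33 to 0.65.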

How the data were processed

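The authors deposited 1 linear intensity per probe set and array (45101 probe sets, 16 arrays). GCOS, MAS5 and RMA are named in the submitters' processing notes; the sources used here do not say which made these values or in which version. The deposited intensities were not scaled between arrays: their 2% trimmed means lay between 137 and 263.

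After removal of 64 control probe sets, intensities were quantile-normalized and log2(value + 16) taken. Of the probe sets, 34945 had a single symbol in the platform annotation, 34754 of them matched to RefSeq GRCm38.p6 names, and 932 had several. The probe set of highest mean stood for each of 18193 genes. Groups came from the labels' gestation and treatment fields; replicate numbers are accession order and pair nothing.

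The fit was limma 3.58.1 (lmFit, eBayes with trend) in R 4.3.3, with 4 group means and 12 residual degrees of freedom, and Benjamini-Hochberg adjustment within each contrast at 0.05. It was tested on simulated data with independent normal noise for each gene, and with changes only in genes above the array median on at least 4 arrays. Tissue differences shared by many genes of an array were not simulated, so this test does not cover them. Named genes are the 9 members, up to 4 called genes per list with the smallest p (otherwise up to 2), and the 3 genes most like each member. Members and lists were chosen with earlier results of these data known. Alternatives covered normalization, filter, pseudocount (1 and 64), trend, array weights, arrays fitted, probe set choice, the conflicting label, arrays of unlike tissue and each array left out. Diesel particle exposure and later times of the design were not analysed here.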

Additional observations from a re-analysis of the deposited data

Results flagged for a closer look

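Of 36 sets of 4 arrays (9 genes in 4 groups), 2 held an array that stood apart from the other 3 by Dixon's criterion at 95%, which chance alone gives in about 1 of 20 sets. Marco was at 4.77 on non-pregnant TiO2 replicate 2, the highest of its group, with the others at 4.13 to 4.24. Cd36 was at 12.19 on non-pregnant PBS replicate 3, the lowest of its group, with the others at 12.35 to 12.36. No member's TiO2 effect differed between pregnant and non-pregnant mice at an adjusted p under 0.05 (limma, 0 of 9).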

How the results depend on the processing

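Members called for pregnancy after PBS numbered 2 as reported, 0 with values as deposited, 1 in a fit of the compared groups only and 0 with the conflicting array as pregnant, and 1 to 3 with single arrays left out. After TiO2 they numbered 1 as reported, 0 with values as deposited, with the mean of all probe sets, with the conflicting array as pregnant and without the arrays lacking Glycam1, 2 with the filter and with array weights (Cd68 added), and 0 to 1 with single arrays left out. The TiO2 contrasts and their difference stayed at 0 under every alternative run. Values as deposited shifted the median of all genes by 0.14 for TiO2 in non-pregnant mice, to 0.12, by 0.12 for pregnancy after PBS, to 0.13, and by −0.22 for the difference of the TiO2 effects, to −0.19.

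Over all genes, calls for pregnancy after PBS ran from 1 (conflicting array as pregnant) to 208 (without the 3 unlike arrays), against 109. After TiO2 they ran from 5 (without the arrays lacking Glycam1) to 805 (array weights), against 223.

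Small differences changed sign, and the cause was not tested. For TiO2 in non-pregnant mice, these were Adgre1 without the unlike arrays (−0.10), Cd36 with all probe sets (−0.0098), Csf1r with values as deposited (0.13), all probe sets (0.0416), the conflicting array as pregnant (0.0400) and without the arrays lacking Glycam1 (0.0108), and Siglecf as deposited (0.0901) and without the unlike arrays (0.16). For TiO2 in pregnant mice, they were Adgre1 as deposited (−0.0225) and without either set of arrays (−0.0247 in both), Cd68 with trimmed-mean scaling (0.0015) and the conflicting array as pregnant (0.11), Marco as deposited (−0.11), with trimmed-mean scaling (−0.0488), all probe sets (−0.14) and without either set of arrays (−0.0143 in both), and Mertk with array weights (0.0105) and the conflicting array as pregnant (0.0532). For pregnancy after PBS, they were Adgre1 without the unlike arrays (−0.0061), Cd36 with all probe sets (−0.0014), and Siglecf with array weights (−0.0636) and the conflicting array as pregnant (−0.0934). For pregnancy after TiO2, they were Msr1 as deposited (−0.0014), Mertk with array weights (0.0274), and, without the arrays lacking Glycam1, Adgre1 (−0.0111), Csf1r (−0.0078) and Mertk (0.0345). For the difference of the TiO2 effects, they were Adgre1 as deposited (−0.24), with array weights (−0.0297), the conflicting array as pregnant (−0.0265) and without the arrays lacking Glycam1 (−0.11), and Siglecf with the conflicting array as pregnant (0.0238).

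With single arrays left out, TiO2 differences in non-pregnant mice ran from −0.0306 to 0.0673 for Adgre1, −0.1067 to 0.0400 for Csf1r and −0.1694 to 0.0369 for Siglecf. In pregnant mice they ran from −0.0247 to 0.1013 for Adgre1, −0.0927 to 0.0969 for Cd68, −0.0491 to 0.0800 for Marco and −0.0403 to 0.0542 for Mertk. Pregnancy differences ran from −0.0122 to 0.1119 for Cd36 and −0.0420 to 0.1882 for Siglecf after PBS, and from −0.1285 to 0.0231 for Mertk and −0.1555 to 0.0025 for Siglecf after TiO2. The difference of the TiO2 effects ran from −0.0374 to 0.0886 for Adgre1 and −0.2170 to 0.1024 for Msr1. No paired analysis was possible because the labels give no replicate numbers. Array signal limits Marco and Msr1 most: each was above the array median on 9 of 16 arrays.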
